A study of Mus musculus with 8 samples.

Results

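Transcripts typical of blood vessel endothelium and of adipocytes were followed in RNA of γδ T cells sorted from mouse visceral fat. The set comprises 33 known marker genes, 22 endothelial and 11 adipocyte, chosen with earlier results of these data known. All 33 were found by symbol among the 47729 genes of the count table. The endothelial genes were carried in quantity by 2 of the 4 ketogenic diet (KD) libraries, and at a lower level by 2 of the 4 chow libraries. Among the adipocyte genes, Fabp4 and Cd36, which capillaries and macrophages also express, were highest in the same 2 KD libraries. Those that define adipocytes were at or near 0 counts in most libraries, and of these only Car3 was plain in the same 2 KD libraries. For this reason the adipocyte genes are described below in 2 sets, and the name adipocyte is used for the list alone. Which cells these transcripts came from was not tested.

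The samples were polyA RNA of γδ T cells from visceral adipose tissue of C57BL/6 mice, 4 samples of the control chow group and 4 of the KD group. KD supplies energy mostly as fat, with little carbohydrate. Feeding lasted 1 week in both diets, per the series' design text, and no genotype or further treatment separates the groups. The labels do not say whether a sample is 1 mouse or a pool, nor do they give age or sex, so p-values reflect only how these samples scatter, and that scatter may be technical. In the same design text, intravenous labelling marks the tissue-resident immune cells for single-cell work, which was not analysed here.

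Endothelial cells line blood vessels. They are held together by junction proteins such as VE-cadherin and claudin 5, respond to vascular growth factors and angiopoietins through receptor tyrosine kinases, and in fat carry lipoprotein lipase on GPIHBP1 so that triglyceride can be hydrolysed at the capillary wall. Adipocytes store the released fatty acids in droplets coated by perilipin and secrete adiponectin, leptin and adipsin. FABP4, CD36 and PPARγ are found in adipocytes but also in capillary endothelium and macrophages, so that their transcripts do not tell these cells apart.

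Promoter sequence was available from RefSeq (build GRCm38.p6) for 19 of the 33 genes, in 24 windows of 250 bases before an annotated start. The endothelial FOX:ETS core (ACAGGAA, either strand) was in 4 of 13 endothelial windows, belonging to Egfl7, Emcn and Tie1, in 0 of 11 adipocyte windows and in 7.20% of all 32851 windows. The C/EBP motif (TTGCNNAA, either strand), bound by factors of the adipocyte programme, was in 0 of 13 endothelial windows and in 4 adipocyte windows, those of Cidec, Lep, Plin1 and Pparg, against 9.56% of all windows. A SOX motif (AACAAT) was in 2 endothelial windows and 1 adipocyte window (9.42% of all), a nuclear receptor half-site (AGGTCA) in 3 of each list (14.0% of all), a TATA box (TATAAA) in 1 of each (12.4% of all), and a full ETS site (CCGGAAGT) in 0 of either (2.88% of all). These matches describe letters and not bound sites, and no 2 of the motifs overlapped in the windows printed here. Shown are 3 windows on the plus strand with distinct patterns in the libraries: Emcn, with counts almost confined to KD replicates 3 and 4 (chr3:137340828-137341077), Aqp1, with the largest fold change of the 21 tested genes in the fit of all libraries (chr6:55336049-55336298), and Lep, at 0 counts in every library (chr6:29059971-29060220). Capitals mark the FOX:ETS core in Emcn and the C/EBP motif in Lep, and Aqp1 holds none of the 6 motifs.
Emcn: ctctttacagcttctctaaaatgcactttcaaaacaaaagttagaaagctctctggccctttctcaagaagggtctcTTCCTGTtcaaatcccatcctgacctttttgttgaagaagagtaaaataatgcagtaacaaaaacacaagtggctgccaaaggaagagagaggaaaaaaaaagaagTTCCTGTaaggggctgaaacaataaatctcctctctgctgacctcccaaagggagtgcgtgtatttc
Aqp1: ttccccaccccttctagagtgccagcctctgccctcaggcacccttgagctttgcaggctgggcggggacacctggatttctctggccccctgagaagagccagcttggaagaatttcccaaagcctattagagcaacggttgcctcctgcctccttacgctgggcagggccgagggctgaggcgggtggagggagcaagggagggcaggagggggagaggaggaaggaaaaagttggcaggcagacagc
Lep: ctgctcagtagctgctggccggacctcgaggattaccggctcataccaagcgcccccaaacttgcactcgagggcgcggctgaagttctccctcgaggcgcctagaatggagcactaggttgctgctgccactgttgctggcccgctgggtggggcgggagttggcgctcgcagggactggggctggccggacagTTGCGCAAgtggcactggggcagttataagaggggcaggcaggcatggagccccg

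The libraries held 19796112 to 31926427 counts. The detection floor, 3 counts, was worth 0.0947 to 0.152 CPM (count per library total scaled by TMM factors, a composition correction) in single libraries. The labels mention no molecular identifiers, so reads may repeat molecules and floors and intervals describe counting error alone. The 8 γδ T cell genes, Trdc among them, summed to 11870 to 12184 CPM in chow and 12041 to 13651 CPM in KD, so the labelled cell type was plain in every library. The 22 endothelial genes took between 0.00578% and 0.0706% of a library's counts. In bulk RNA, fewer cells of a type and less RNA per cell cannot be told apart.

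Pecam1, Eng and Egfl7 were the 3 endothelial genes with at least 1 CPM in all 8 libraries. Pecam1 encodes CD31, an adhesion molecule of endothelium that leukocytes also carry. It stood at 72.8, 54.7, 51.5 and 39.6 CPM in chow replicates 1 to 4 and at 45.04, 52.8, 121 and 108 CPM in KD replicates 1 to 4. Eng, the TGFβ co-receptor endoglin, stood at 6.52, 12.7, 4.51 and 3.64 CPM in chow and at 3.62, 7.11, 14.7 and 24.3 CPM in KD. Both genes were highest in KD replicates 3 and 4, and KD replicates 1 and 2 lay within the chow range or below it. Their log2 fold changes (KD minus chow) were 0.58 (SE 0.32, adjusted p = 0.677) and 0.86 (SE 0.59, adjusted p = 0.763) by edgeR's quasi-likelihood test. Egfl7, a secreted vessel protein whose gene hosts miR-126, ranged from 1.26 to 8.99 CPM in chow and from 1.43 to 23.9 CPM in KD (1.28, SE 0.90, adjusted p = 0.772). Exonic bases of Eng overlap Fpgs (61 bases) and those of Egfl7 overlap Agpat2 among others (459 bases in all), both on the opposite strand, and Pecam1 had counts that were not whole in 7 libraries. The sources used here give no strand setting, and the part of the overlaps in these levels was not tested.

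The other 19 endothelial genes were near 0 in some libraries and plain in others. Their summed level was 79.9, 2.62, 2.05 and 26.2 CPM in chow replicates 1 to 4 and 6.39, 7.49, 272 and 553 CPM in KD replicates 1 to 4. KD replicates 3 and 4 were thus well above every other library, with chow replicates 1 and 4 next and the remaining 4 libraries low. All 22 endothelial genes had at least 3 counts in KD replicates 3 and 4, against 18 in chow replicate 1, 16 in chow replicate 4, 14 in KD replicate 2 and 6 to 8 in chow replicates 2 and 3 and KD replicate 1. All 22 were highest in KD replicate 3 or 4 (7 and 15 genes), where 28.9% of all tested genes were highest in 1 of these libraries. For 18 of the 22, and for 13 of the 16 that passed the count filter, KD replicates 3 and 4 were the 2 highest libraries, a ranking found for 6.50% of tested genes. These 2 libraries were singled out after their values were seen. The genes, too, were chosen with earlier results of these data known, so the shares are descriptive.

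**Figure D1:**
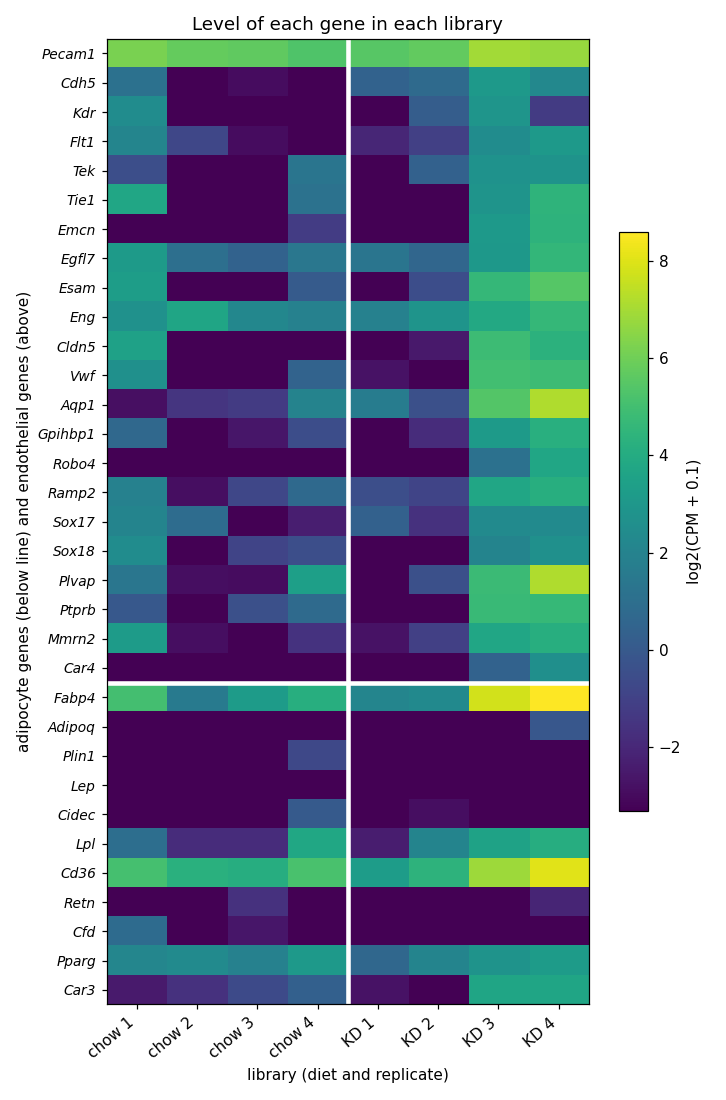
Level of each of the 33 genes (rows) in each of the 8 libraries (columns), coloured by log2(CPM + 0.1), with chow to the left of the vertical line and endothelial genes above the horizontal line. KD replicates 3 and 4 are bright through the endothelial rows except Kdr in KD replicate 4, chow replicate 1 carries part of them, and most adipocyte rows other than Fabp4, Cd36, Lpl, Pparg and Car3 are dark throughout.

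Receptors for vascular growth factors and angiopoietins differed in which libraries carried them. Kdr, the main VEGF receptor (VEGFR2), had 129, 0, 0 and 0 counts in the chow libraries and 0, 28, 146 and 7 in the KD libraries, in replicate order. Its counts thus came mostly from 1 library of each diet, and it missed the count filter. Flt1, the VEGF-binding receptor VEGFR1, stood at 4.14, 0.487, 0.0316 and 0 CPM in chow and 0.143, 0.376, 5.51 and 8.66 CPM in KD, a log2 difference of 1.66 (SE 1.66, adjusted p = 0.875). Tek (TIE2), the angiopoietin receptor, had 15, 0, 0 and 71 counts in chow and 0, 32, 133 and 146 in KD (2.29, SE 1.76, adjusted p = 0.806). Unlike Kdr and Flt1, Tek was higher in chow replicate 4 than in chow replicate 1. Tie1, its orphan partner, reached 13.3 and 2.12 CPM in chow replicates 1 and 4 and 7.13 and 21.2 CPM in KD replicates 3 and 4, with 0 counts in chow replicates 2 and 3 and KD replicates 1 and 2 (0.88, SE 2.07, adjusted p = 0.961). Robo4, a guidance receptor of vessels, had 0 counts in all chow libraries and in KD replicates 1 and 2, and 41 and 285 in KD replicates 3 and 4. Set against 3 counts over the whole chow group as the floor, Robo4 was at least 137-fold higher in KD, and at least 22.8-fold without KD replicate 4. It too missed the filter. Ramp2, a subunit of the adrenomedullin receptor, stood at 3.68, 0.0375, 0.474 and 1.56 CPM in chow and 0.620, 0.452, 13.1 and 17.4 CPM in KD (2.46, SE 1.33, adjusted p = 0.673). Ramp2 shares 1103 exonic bases with Vps25, which was at 101 to 128 CPM in every library, and its counts were not whole in 2 libraries.

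Junction and adhesion genes also differed in their libraries. Cldn5, the tight junction protein of endothelium, had 269 counts in chow replicate 1 and 0 in the other chow libraries. In KD it had 0, 2, 572 and 432 counts, so that 3 of 8 libraries held nearly all of it. Esam, an endothelial adhesion molecule, stood at 9.70, 0, 0 and 0.960 CPM in chow and 0, 0.602, 24.2 and 43.7 CPM in KD, a log2 difference of 2.69 (SE 2.12, adjusted p = 0.815). Cdh5, which encodes VE-cadherin, was present in every KD library. It had 50, 0, 1 and 0 counts in chow and 26, 44, 165 and 101 in KD (2.91, SE 1.62, adjusted p = 0.677). Its chow counts came almost wholly from replicate 1, without which the fitted value was 7.96 (edgeR adjusted p = 0.0637, range over the alternatives 0.0637 to 0.999), a value that rests on 1 remaining chow count. Ptprb, the phosphatase VE-PTP that acts on VE-cadherin and TIE2, reached 27.2 and 24.9 CPM in KD replicates 3 and 4, at most 1.66 CPM in chow and 0 counts in the other KD libraries (4.01, SE 1.86, adjusted p = 0.596). Emcn, a sialomucin of capillaries and veins, had 166 and 443 counts in KD replicates 3 and 4, 10 in chow replicate 4 and 0 elsewhere, including chow replicate 1. Mmrn2, a matrix protein of endothelium, followed Cldn5 instead, with 221 counts in chow replicate 1, 260 and 386 in KD replicates 3 and 4, and 10 or fewer elsewhere.

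Genes of vessel specialisation held the highest single values of the endothelial list, 145 CPM each for Aqp1 and Plvap in KD replicate 4. Aqp1, the water channel of continuous capillaries, had 1, 7, 10 and 120 counts in chow and 65, 17, 823 and 3128 in KD. The diets overlapped, since chow replicate 4 (3.97 CPM) lay above KD replicates 1 and 2 (3.10 and 0.640 CPM). Its log2 fold change of 5.34 (SE 1.85, edgeR adjusted p = 0.450) was the largest of the 21 tested endothelial and adipocyte genes in the fit of all libraries. It was 3.70 without KD replicate 4, and Cdh5 was larger than Aqp1 without chow replicate 1 (7.96 against 4.95), with a replicate block (6.42 against 5.19) and by voom (5.69 against 3.83). Plvap, the diaphragm protein of fenestrae and caveolae, stood at 2.42, 0.0375, 0.0316 and 10.4 CPM in chow and 0, 0.640, 27.8 and 145 CPM in KD (3.75, SE 2.14, adjusted p = 0.705). Like Aqp1, Plvap was highest in KD replicate 4 and, among chow libraries, in replicate 4. Vwf, the von Willebrand factor, reached 31.3 and 28.7 CPM in KD replicates 3 and 4, 6.19 CPM in chow replicate 1 and at most 1.29 CPM elsewhere (3.01, SE 2.19, adjusted p = 0.793). Gpihbp1, the capillary anchor of lipoprotein lipase, had 36, 0, 2 and 18 counts in chow and 0, 5, 175 and 397 in KD (3.66, SE 1.81, adjusted p = 0.625). Car4, a membrane carbonic anhydrase of capillaries, resembled Robo4: it had 25 and 132 counts in KD replicates 3 and 4 and 0 in the other 6 libraries, at least 66.2-fold higher in KD against the same floor and at least 13.9-fold without KD replicate 4. Sox17, a transcription factor of arterial endothelium, stood at 4.06, 1.76, 0 and 0.0994 CPM in chow and 1.19, 0.226, 5.11 and 5.09 CPM in KD (0.97, SE 1.43, adjusted p = 0.932). For Sox18, a related factor, the log2 difference was 0.66 (SE 1.82, adjusted p = 0.969). It was at 5.39 CPM in chow replicate 1 and 3.99 and 6.20 CPM in KD replicates 3 and 4, so that 1 library of chow reached the level of the high KD libraries.

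No endothelial gene passed edgeR's test between the diets. Of the 22, 16 passed the count filter and 0 rose or fell at an adjusted p under 0.05, where 0.508% of the 13397 tested genes passed, 0.328% rising and 0.179% falling. The smallest adjusted p was 0.450, and 1 gene, Aqp1, had an unadjusted p under 0.05 by edgeR, where 8.64% of tested genes did (4.48% higher in KD). DESeq2 called Aqp1 (log2 fold change 5.38, SE 1.64, adjusted p = 0.0489) and no other gene of the set, where it called 2.18% of all tested genes. It gave 3 of the 16 an unadjusted p under 0.05, against 9.99% of all tested genes. Voom with sample weights and limma on FPKM called 0. Over all 13397 tested genes voom called 95, and limma called 126 on log2 of FPKM plus 1 and 119 on log2 of FPKM plus 0.1. All 16 had a positive fold change (50.9% of tested genes did), with a median of 2.38 against 0.01 over all tested genes, and 9 reached a log2 fold change of at least 2 (2.26% of tested genes). These shares describe genes that were chosen with earlier results of these data known. The standard errors were large, with a median of 1.78. In 11 of the 16 the SD over the 4 KD libraries was above the KD mean. In 0 of the 22 were all KD libraries above all chow libraries, or all below (6.05% of tested genes in either direction, 3.30% above and 2.75% below). Leaving out chow replicate 1 gave a median of 3.57, and leaving out KD replicate 4 gave 1.55. Without KD replicates 3 and 4, an alternative chosen after seeing the data, 15 of 17 fitted genes had a negative fold change and the median was -1.42, with 0 called by edgeR.

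**Figure D2:**
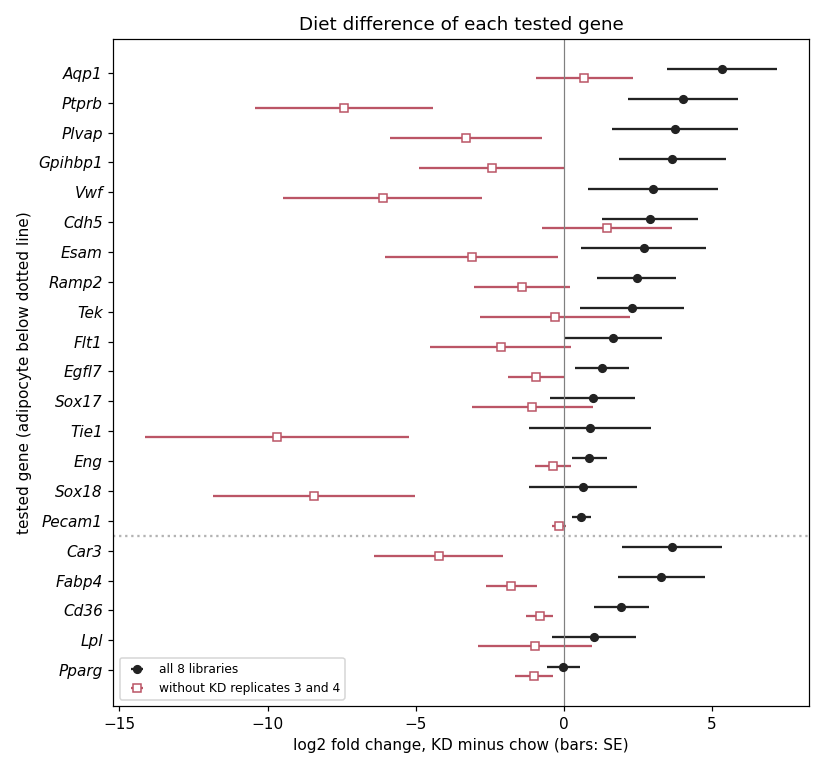
Log2 fold change (KD minus chow, x axis) of the 21 tested genes, with bars for the SE, from all 8 libraries (filled circles) and without KD replicates 3 and 4 (open squares). In the fit of all libraries 20 of 21 values are above 0 and Pparg lies at -0.03, whereas without these 2 libraries only Aqp1 and Cdh5 are above 0, and the values of Tie1, Sox18 and Ptprb, at 0 counts in both remaining KD libraries, depend on the prior count.

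Of the 7 adipocyte-defining genes 6 were at or near 0 in nearly every library. Lep, which encodes leptin, had 0 counts in all 8 libraries, which allows up to 0.0947 to 0.152 CPM. Adipoq, which encodes adiponectin, one of the most abundant transcripts of an adipocyte, had 18 counts in KD replicate 4 and 0 in the other 7. Plin1, the perilipin of the adipocyte droplet, had 15 counts in chow replicate 4 and 0 in the other 7, and Cidec, a droplet fusion protein, had 28 in chow replicate 4, 1 in KD replicate 2 and 0 elsewhere. Apart from that 1 count, each of these 3 genes was seen in 1 library alone. Retn, which encodes resistin, had 7 counts in chow replicate 3 and 3 in KD replicate 4. Cfd, which encodes adipsin, had 41 counts in chow replicate 1 and 2 in chow replicate 3. All 6 genes missed the count filter, and a change in them was not detectable at this depth. Car3, a cytosolic carbonic anhydrase abundant in fat, was the exception, with 2, 6, 17 and 35 counts in chow and 1, 0, 252 and 277 in KD. Its level of 12.7 and 12.8 CPM in KD replicates 3 and 4 was above all other libraries, and KD replicates 1 and 2 and chow replicate 1 were under the floor of 3 counts (log2 fold change 3.65, SE 1.69, adjusted p = 0.593).

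The 4 genes shared with capillaries or macrophages had counts in every library, with Lpl under the floor in KD replicate 1 (2 counts). Fabp4, the fatty acid binding protein, had 790, 77, 289 and 535 counts in chow and 88, 133, 4276 and 8339 in KD. KD replicates 3 and 4 (216 and 386 CPM) lay above the highest chow library (33.03 CPM), and the other KD libraries (4.19 and 5.01 CPM) lay above only chow replicate 2, and the log2 difference was 3.29 (SE 1.47, adjusted p = 0.596). Cd36, the fatty acid translocase, stood at 33.9, 18.5, 17.3 and 36.2 CPM in chow and 9.44, 20.5, 115 and 262 CPM in KD (1.94, SE 0.93, adjusted p = 0.629). Fabp4 and Cd36 thus had the same 2 high libraries. Lpl, lipoprotein lipase, stood at 1.88, 0.187, 0.189 and 13.8 CPM in chow and 0.0953, 3.99, 11.6 and 16.9 CPM in KD (1.02, SE 1.40, adjusted p = 0.921). Pparg, the nuclear receptor of adipocyte differentiation, stood at 4.39, 5.17, 3.63 and 8.74 CPM in chow and 1.48, 3.99, 6.88 and 9.17 CPM in KD (-0.03, SE 0.56, adjusted p = 0.995). Lpl and Pparg did not follow Fabp4, because chow replicate 4 reached the level of KD replicate 3 or higher in both. The 10 macrophage and monocyte genes summed to 97.9 CPM in chow replicate 4 and to 2.57 to 39.3 CPM in the other libraries, but Lyz2 alone made up 82.5 CPM of the former. By gene, 3 of the 10 were highest in chow replicate 4, 6 in KD replicate 4 and 1 in chow replicate 2. The part of these cells in the Lpl and Pparg levels was not tested.

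Of the 11 adipocyte genes 5 passed the filter (Fabp4, Lpl, Cd36, Pparg and Car3). By edgeR 0 of the 5 rose or fell (0.508% of all tested genes did), with a smallest adjusted p of 0.593. By the same test 0 had an unadjusted p under 0.05, where 8.64% of all tested genes did. DESeq2 gave 3 of the 5 an unadjusted p under 0.05 (9.99% of all tested genes) and called 0 (2.18% of all tested genes). The median log2 fold change was 1.94. It was 3.35 when chow replicate 4 was left out and 0.86 when KD replicate 4 was. Without KD replicates 3 and 4 all 5 were negative, with a median of -1.01. In 0 of the 11 were the diets without overlap, as they were in 6.05% of tested genes.

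**Figure D3:**
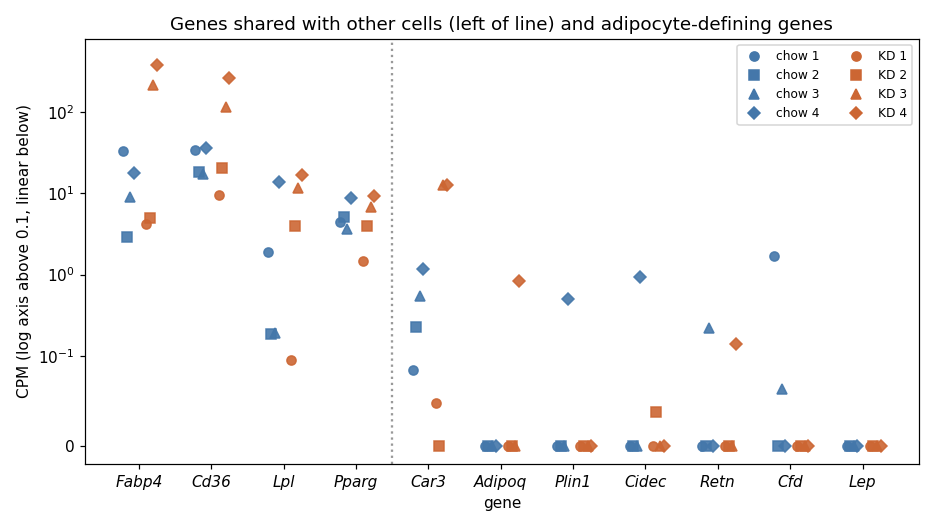
CPM (y axis, logarithmic above 0.1 and linear below) of the 11 adipocyte genes in each library, with chow in blue, KD in orange and a marker shape for each replicate. Left of the dotted line Fabp4 and Cd36 separate KD replicates 3 and 4 (from 216 CPM and from 115 CPM) from the rest, and right of it all points but those of Car3 are at 1.71 CPM or lower.

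Compared per length, in FPKM (fragments per kilobase of gene), the genes ranked differently over all libraries and in KD replicates 3 and 4. By the median over all 8 libraries the highest levels were those of Pecam1 (18.4 FPKM, range 12.8 to 42.3), Fabp4 (15.7, range 3.54 to 460), Cd36 (10.9, range 3.81 to 102), Egfl7 (3.24, range 1.31 to 23.9), Pparg (2.79, range 0.740 to 5.15) and Eng (2.27, range 1.13 to 7.92). The ranges of neighbours in this order overlap. As means of KD replicates 3 and 4 the order was led by Fabp4 (359 FPKM), Cd36 (73.4 FPKM), Plvap (44.3 FPKM), Pecam1 (38.9 FPKM), Aqp1 (36.4 FPKM) and Ramp2 (20.7 FPKM). KD replicate 4 set the place of Plvap, which was at 74.4 FPKM there and at 14.3 FPKM in KD replicate 3, below Pecam1 (42.3 FPKM), Cldn5 (21.6 FPKM), Ramp2 (17.95 FPKM) and Aqp1 (16.3 FPKM). Adipoq stood at 0.340 FPKM in the same mean, and Lep, Plin1, Cidec and Cfd at 0.

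The make-up of the endothelial RNA was not the same from library to library. Within the summed FPKM of the 19 genes other than Pecam1, Eng and Egfl7, Plvap and Aqp1 made up 27.6% and 21.0% in KD replicate 4 and 10.8% and 12.3% in KD replicate 3. Chow replicate 4 resembled KD replicate 4 in its leading gene, with Plvap at 41.8% and Cldn5 at 0%. In chow replicate 1, by contrast, Cldn5 was at 23.5%, Esam at 15.2% and Tie1 at 9.30%, with Plvap at 3.502% and Aqp1 at 0.0560%. The summed CPM of the 19 genes was 2.03 times as high in KD replicate 4 as in KD replicate 3, and single genes lay on both sides of that ratio. The intervals given here are exact 95% binomial ones for counting error, and they compare these 2 libraries alone. The extremes were Robo4 (ratio 6.37, interval 4.58 to 9.06), Plvap (5.23, 4.77 to 5.73) and Car4 (4.84, 3.14 to 7.74) on the one side and Kdr (0.0439, 0.0173 to 0.0928), Cdh5 (0.561, 0.433 to 0.722) and Cldn5 (0.692, 0.609 to 0.785) on the other. The ratios of Fabp4 and Cd36 were 1.79 and 2.29, and that of Car3 was 1.01 (0.846 to 1.20).

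**Figure D4:**
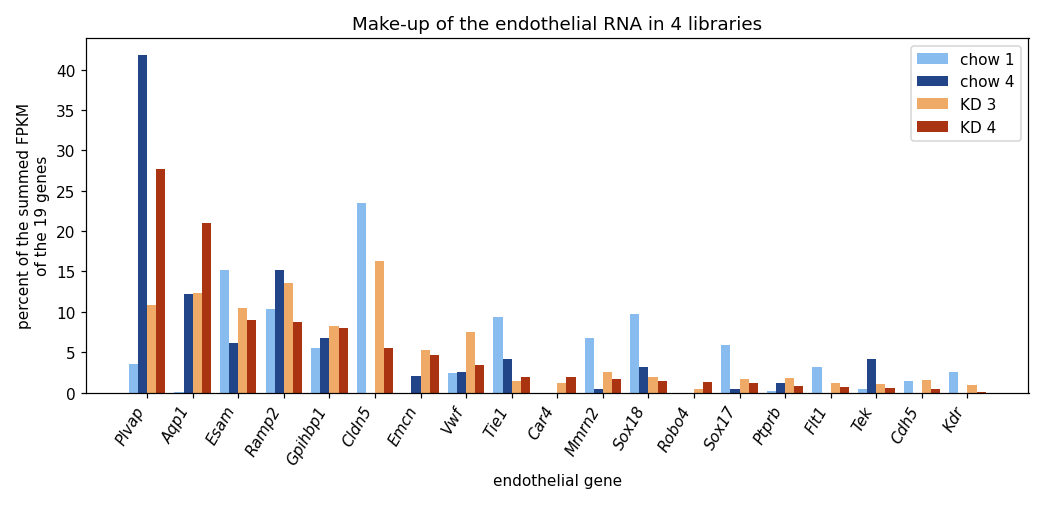
Share of each of 19 endothelial genes (x axis) in their summed FPKM (y axis, percent) in the 4 libraries with the most endothelial RNA, in light and dark blue for chow replicates 1 and 4 and in orange and red for KD replicates 3 and 4. Plvap leads in chow replicate 4 and KD replicate 4 (41.8% and 27.6%), and Cldn5 in chow replicate 1 and KD replicate 3 (23.5% and 16.3%).

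Of a further 30 endothelial genes, 17 were tested and 0 rose or fell (0.508% of all tested genes did). A positive log2 fold change was found in 16 (median 2.01), as in 50.9% of all tested genes. For 16 of the 30, tested or not, KD replicates 3 and 4 were the 2 highest libraries, where the share over tested genes alone was 6.50%. The most abundant were Rgcc (343 to 497 CPM in chow) and Icam2, an adhesion molecule also carried by leukocytes (53.1 to 89.9 CPM in chow), which were high in every library and had log2 fold changes of -0.03 and 0.23. Cav1, which encodes the coat protein of caveolae, was next, with 765, 0, 145 and 21 counts in chow and 9, 597, 1840 and 2441 in KD (2.63, SE 1.72, adjusted p = 0.753). Genes of particular vessel segments, named here after their values were seen, gave no single picture. Within a segment some genes moved alike and others did not. Ackr1 and Selp, which mark venules, had 496 and 388 counts in KD replicate 4, 28 and 32 in KD replicate 3 and 14 and 1 in chow replicate 1, and Ackr1 had 33 in chow replicate 4. Sele, which encodes E-selectin, had 252 counts in KD replicate 4, 11 in KD replicate 3 and 21 in chow replicate 3. Nr2f2, a factor of venous identity, went the other way, with 127 counts in KD replicate 3 and 67 in KD replicate 4. Gja5, a connexin of arteries, had 285 counts in chow replicate 1, 554 in KD replicate 3 and 10 in KD replicate 4. Gja4, another connexin, had 210, 242 and 67 counts in the same libraries. Efnb2, an ephrin of arteries, was instead highest in KD replicate 1, a library with few endothelial counts. It had 54 counts there and 38 and 37 in KD replicates 3 and 4. The 7 lymphatic genes summed to at most 5.65 CPM. Of the 3 most abundant, Pdpn had 0, 16, 0 and 17 counts in chow and 1, 59, 21 and 57 in KD. Flt4 had 5, 26, 0 and 28 counts in chow and 41, 66, 2 and 0 in KD, and Reln had at most 25 (KD replicate 2). Prox1, Lyve1 and Mmrn1, named after their values were seen, had 0 counts in all libraries.

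Of a further 25 adipocyte genes 7 were tested and 0 rose or fell, where 0.508% of all tested genes did (median log2 fold change 0.21). The most abundant were Pnpla2, a triglyceride lipase of many cell types (77.5 to 123 CPM in chow), Fasn, the fatty acid synthase (88.3 to 152 CPM in chow), and Lipe, the hormone-sensitive lipase (0.861 to 6.47 CPM in chow). Their log2 fold changes were 0.21, -0.31 and 0.52, and they were present in libraries with few endothelial counts. Cidea, Acvr1c and Slc7a10, named after their values were seen, were the only 3 of the 25 with 0 counts in all libraries. At least 3 counts were held by 15 and 12 of the 25 in KD replicates 3 and 4 and by 6 to 12 in the others. Trarg1, Slc2a4 and Pnpla3 were likewise named after their values were seen. Trarg1 had 101 counts in chow replicate 1, 20 and 74 in KD replicates 3 and 4 and 0 elsewhere. Slc2a4 had 14, 69 and 18 in the same libraries, and Pnpla3 had 61 in chow replicate 2 alone. For 6 of the 25, tested or not, KD replicates 3 and 4 were the 2 highest libraries. Over tested genes alone the share was 6.50%. The water and glycerol channel gene Aqp7, named after its values were seen, had 125 and 288 counts in KD replicates 3 and 4, 1 in chow replicate 1 and 0 elsewhere.

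Markers of other cells of fat moved only in part with the endothelial genes. The 10 mural cell genes, among them smooth muscle actin Acta2, summed to 172, 17.0, 23.2 and 21.8 CPM in chow and 23.4, 21.2, 276 and 92.4 CPM in KD, so that chow replicate 1 and KD replicates 3 and 4 were again high. Acta2 stood at 77.9 CPM in chow replicate 1, 136 and 36.8 CPM in KD replicates 3 and 4 and at most 1.64 CPM elsewhere. The 13 fibroblast and mesothelial genes summed to 23.1, 27.9, 42.3 and 197 CPM in chow and 32.9, 517, 290 and 316 CPM in KD. Their highest library was KD replicate 2, which had few endothelial counts, and chow replicate 1, next after KD replicates 3 and 4 in endothelial counts, was their lowest. In this list 1 of 9 tested genes rose, where 0.328% of all tested genes did. It was Krt19, a keratin of mesothelium, with 0, 2, 0 and 1 counts in chow and 28, 264, 148 and 105 in KD (edgeR adjusted p = 0.0247). The 9 erythroid and platelet genes summed to 3.26 to 529 CPM in chow and 97.4 to 551 CPM in KD and were highest in chow replicate 3 and KD replicate 3, of which the former had few endothelial counts. The 5 B cell genes summed to 157 to 192 CPM in chow and 155 to 237 CPM in KD. Of the mural (6 tested), macrophage (3), lymphatic (2), B cell (4) and erythroid and platelet genes (6), 0 rose or fell. Over all tested genes 0.508% did. The part of these cells in the diet difference of the members was not tested.

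**Figure D5:**
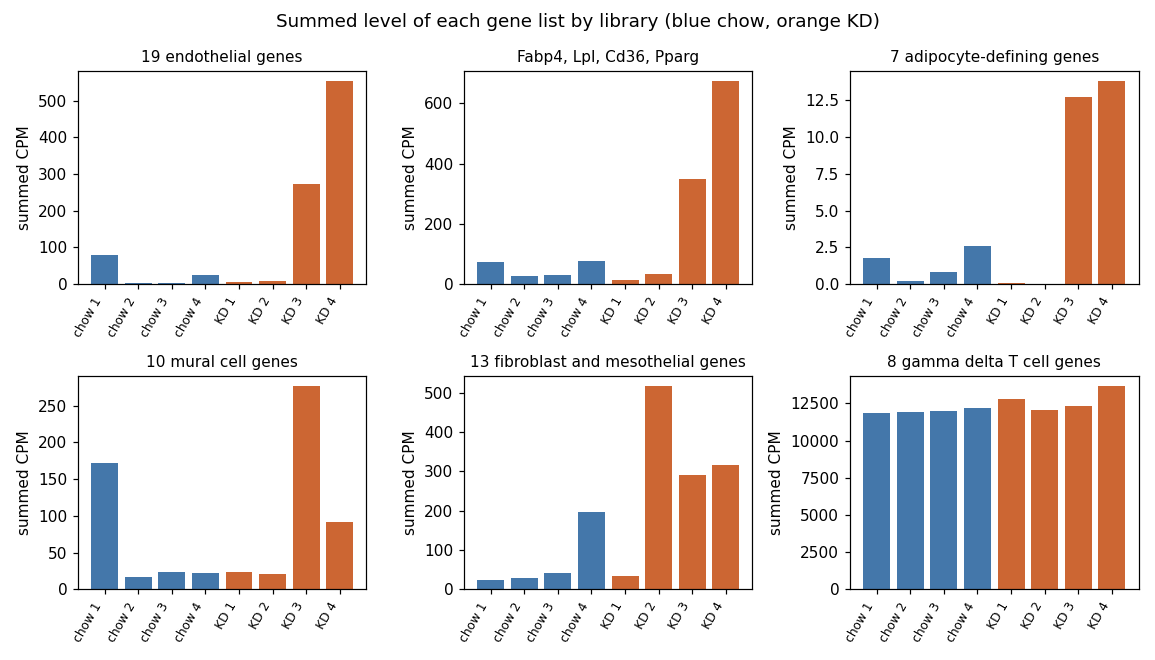
Summed CPM (y axis) of 6 gene lists in each library, with chow in blue and KD in orange. The endothelial genes and the 4 shared genes peak in KD replicate 4 (553 and 674 CPM), the mural genes in KD replicate 3 (276 CPM) and the fibroblast and mesothelial genes in KD replicate 2 (517 CPM), while the γδ T cell genes are near level.

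The 33 genes lie on 14 chromosomes (GENCODE release M21, GRCm38), and 29 share no exonic bases with another annotated gene. Of the others, Eng, Egfl7 and Ramp2 share bases with a tested gene and Sox17 with an untested one. Eng lies at chr2:32646595-32682669 and Egfl7 at chr2:26580014-26593120. Aqp1, at chr6:55336432-55348555, Plvap, at chr8:71497765-71511752, and Fabp4, at chr3:10204088-10208576, share none, and their counts were whole in every library.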

How the data were processed

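PolyA RNA of sorted γδ T cells was sequenced in 4 chow and 4 KD samples. The authors deposited estimated counts per gene and FPKM values. The submitters' processing notes name the build GRCm38 and, without versions or roles, RSEM, BWA, DESeq2 and TopHat2. Columns were matched to samples by title. Estimated counts were rounded to whole numbers (5310 to 5802 genes per library were not whole), and no 2 samples were identical. Genes were kept by edgeR's filterByExpr (minimum count 10, minimum total 15), which left 13397. The diets were compared with the quasi-likelihood test of edgeR (glmQLFit and glmQLFTest, robust, two-sided, TMM factors, diet as the only term), with p-values adjusted over all tested genes by Benjamini-Hochberg and a threshold of 0.05. The test was checked on simulated counts. The SE is the fold change divided by the root of F. CPM use TMM-scaled totals of the kept genes. Versions were scipy 1.17.1, DESeq2 1.42.0, limma 3.58.1, edgeR 4.0.16 and R 4.3.3.

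The members and the other lists were chosen with earlier results of these data known. The rule for named genes was all 33 members and, from each other list, the 3 with the highest mean CPM and any that passed, of which only those that bear on the members are printed. Any other gene, apart from those that share exonic bases with a member, is said to be so chosen where it appears, with its values already seen. Alternatives were RLE factors, library totals only, no count filter, a minimum of 5 CPM in 4 samples, the replicate number as a block, voom with sample weights, DESeq2, limma on log2 of FPKM plus 1 or 0.1, and each sample left out in turn. Gene symbols no longer in use were matched through RefSeq synonyms (GRCm38.p6).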

Additional observations from a re-analysis of the deposited data

Results flagged for a closer look

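In 19 of 57 looks at a gene within a diet, 1 sample stood apart from the other 3 by Dixon's criterion for 4 samples (a gap to the nearest sample that takes up most of the range), where chance flags about 1 in 20 groups of normally distributed values. That rate does not hold here: in 7 of the 19 the other 3 samples were at 0 counts (Kdr, Emcn, Cldn5, Plin1, Cidec and Retn in chow and Adipoq in KD), which meets the criterion whatever the remaining sample holds. Genes that share a library are not independent of each other. Chow replicate 1 was the high sample in 10: Cdh5 (2.09 CPM), Kdr (5.39 CPM), Flt1 (4.14 CPM), Tie1 (13.3 CPM), Egfl7 (8.99 CPM), Esam (9.70 CPM), Cldn5 (11.2 CPM), Sox18 (5.39 CPM), Mmrn2 (9.24 CPM) and Cfd (1.71 CPM). Chow replicate 4 was high in 5: Emcn (0.331 CPM), Aqp1 (3.97 CPM), Plin1 (0.497 CPM), Cidec (0.927 CPM) and Lpl (13.8 CPM). Chow replicate 3 was high for Retn (0.221 CPM). In KD, replicate 3 was high for Kdr (7.38 CPM) and replicate 4 for Robo4 (13.2 CPM) and Adipoq (0.833 CPM).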

How the results depend on the processing

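Of 362 pairs of a tested gene and an alternative, 337 kept direction and call, 24 reversed and 1 gained a call, that of Aqp1 by DESeq2, which made 1 endothelial gene called. In every other alternative 0 of the endothelial and 0 of the adipocyte genes were called, each left-out sample included. The endothelial median log2 fold change ran from 1.55 to 3.57 and the adipocyte median from 0.86 to 3.35 when 1 sample was left out. The endothelial median was 0.72 with the 5 CPM filter, which leaves Pecam1 and Eng, and 0.70 on log2 of FPKM plus 1, a scale that shrinks the change of low genes. The adipocyte median was 0.48 with no count filter, which adds genes with few counts. Without KD replicates 3 and 4, chosen after seeing the data, the medians were -1.42 and -1.01, and 18 of the 24 reversals arose: Pecam1 (-0.16), Flt1 (-2.14), Tek (-0.30), Tie1 (-9.69), Egfl7 (-0.95), Esam (-3.11), Eng (-0.35), Vwf (-6.11), Gpihbp1 (-2.44), Ramp2 (-1.42), Sox17 (-1.06), Sox18 (-8.43), Plvap (-3.30), Ptprb (-7.42), Fabp4 (-1.77), Lpl (-0.97), Cd36 (-0.82) and Car3 (-4.22). Of these, Tie1, Sox18 and Ptprb had 0 counts in both remaining KD libraries, so their values depend on the prior count, and none of the 18 was called. Voom with sample weights gave Sox18 -0.67. With 1 sample left out, Tie1 ran from -0.71 to 3.31, Sox18 from -0.28 to 2.81 (both negative without KD replicate 4) and Pparg from -0.42 to 0.29. KD replicates 3 and 4 held the highest KD levels of all 18 genes listed, so leaving them out was bound to lower the fold changes. The cause of the reversals was otherwise not tested.

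Over all tested genes the count of calls was 68 in the comparison as reported. It was 108 with the 5 CPM filter, 292 by DESeq2 and 95 by voom with sample weights. Limma on log2 of FPKM plus 1 and plus 0.1 gave 126 and 119. With 1 sample left out the count was 12 to 44, and without KD replicates 3 and 4 it was 4. With the replicate number as a block it was 12, with medians of 2.90 (endothelial) and 1.71 (adipocyte) and 0 members called. Samples of the same number correlated at -0.11, 0.04, -0.11 and 0.05 in their deviations, and no sample correlated best with its own number. With 4 samples per diet this cannot exclude that samples of the same number were handled together. The comparison as reported does not pair them. The 12 members under the count filter have no test in the comparison as reported. With no filter 32 of the 33 were fitted and 0 were called, with a smallest adjusted p of 0.353 by edgeR.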
